A study of Arabidopsis thaliana with 31 samples.

Results

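The regions described here are the differentially methylated regions (DMRs) of the CHH context that lie within protein-coding genes of Arabidopsis thaliana. CHH is the asymmetric sequence context, in which a cytosine is followed by 2 bases other than G. Of the 23400 CHH DMRs that the authors listed for 5 genotypes, 1046 (4.47%) had their midpoint in a protein-coding gene of the authors' annotation and in no transposable element (TE) or TE gene. The others comprised 16331 CHH DMRs in TEs and 6023 intergenic ones. The 1046 genic CHH DMRs were 200 to 1700 bp long with a median of 250 bp, and 9 of them lay in 2 overlapping genes.

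All plants were of the ecotype Col 0, were grown in vitro, were 18 days old according to the labels, and received UV-C at 3000 J/m2. The methods of the study describe a slightly longer growth before the irradiation than the labels. Leaves were harvested at time point 0, which the methods place directly at the end of the irradiation, and at 24h. By the methods, the DNA for the methylation libraries of time point 0 came from the plants that were used to map photolesions. The study's results, however, speak of this time point as before the irradiation, and its description of DMR calling speaks of untreated plants. The changes are thus against just irradiated leaves by the account of the harvest, and against unirradiated ones by the other accounts. The genotypes were WT, uvr3 phrI (which lacks both photolyases and thus the direct, light-dependent repair of UV photolesions), ddb2 (allele ddb2-3, defective in the damage-recognition factor of global genome repair), dcl4 (dcl4-2, lacking a Dicer-like enzyme that makes small RNAs) and ago1 (ago1-27, a hypomorphic allele of the Argonaute protein that loads them). Whole-genome bisulfite sequencing (WGBS), which reads methylated cytosines as unconverted ones, was made on 1 library per genotype and time point, each from pooled leaves of 2 biological replicates. A hyper-DMR gained and a hypo-DMR lost methylation between both time points of a genotype. The level of a region is its listed CHH methylation, given as a percentage, and a change is given in points of that percentage.

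CHH methylation is placed anew after each replication, by DRM2 in the RNA-directed DNA methylation pathway, which is guided by small RNAs, and by CMT2 in long heterochromatic TEs. It silences TEs and repeats, and gene bodies of Arabidopsis carry mostly CG methylation and very little in the CHH context. Genes with CHH methylation are often close to a TE, hold repeats or have related copies elsewhere.

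The sequences of 4 genic CHH DMRs are shown. All but the last hold the kind of sequence that returned in the lists of several genotypes. The 4 were taken from among the DMRs with the largest change of each list, when at most 300 bp long and outside UTRs. Their bases are those of the TAIR10.1 reference. All are written on the forward strand, with a capital C for a CHH cytosine on that strand and a capital G for a base opposite a CHH cytosine of the reverse strand. The first is in the coding sequence of the extensin gene EXT10 (AT5G06640, ago1 hyper-DMR, chr5:2041400-2041600, gene on the reverse strand).
EXT10: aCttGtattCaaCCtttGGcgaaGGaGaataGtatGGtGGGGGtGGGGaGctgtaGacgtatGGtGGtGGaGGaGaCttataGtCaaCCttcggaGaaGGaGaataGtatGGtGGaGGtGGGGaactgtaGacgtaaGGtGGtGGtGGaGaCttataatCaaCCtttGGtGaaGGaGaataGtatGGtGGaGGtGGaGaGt
The next is in the coding sequence of the extensin-like gene AT3G28550 (ago1 hyper-DMR, chr3:10702950-10703200, gene on the reverse strand).
AT3G28550: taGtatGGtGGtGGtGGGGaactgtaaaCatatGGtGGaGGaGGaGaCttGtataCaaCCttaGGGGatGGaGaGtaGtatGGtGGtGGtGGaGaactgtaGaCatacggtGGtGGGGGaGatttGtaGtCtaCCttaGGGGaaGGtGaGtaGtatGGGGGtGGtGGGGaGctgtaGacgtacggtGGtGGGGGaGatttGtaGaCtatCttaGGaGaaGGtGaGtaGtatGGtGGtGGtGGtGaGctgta
The next is in the coding sequence of HRGP1 (AT3G54590, dcl4 hypo-DMR, chr3:20207550-20207800, gene on the forward strand), which encodes a hydroxyproline-rich cell wall glycoprotein.
HRGP1: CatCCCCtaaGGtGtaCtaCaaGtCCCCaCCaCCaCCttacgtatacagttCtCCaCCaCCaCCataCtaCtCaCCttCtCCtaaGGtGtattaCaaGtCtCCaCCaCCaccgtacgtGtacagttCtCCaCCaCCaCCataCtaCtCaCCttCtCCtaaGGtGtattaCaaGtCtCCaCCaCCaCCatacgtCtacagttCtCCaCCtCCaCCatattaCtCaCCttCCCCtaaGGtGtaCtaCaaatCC
The last is in an intron of AT4G03580 (uvr3 phrI hyper-DMR, chr4:1597350-1597600, gene on the forward strand), whose product is uncharacterized, and is shown for contrast.
AT4G03580: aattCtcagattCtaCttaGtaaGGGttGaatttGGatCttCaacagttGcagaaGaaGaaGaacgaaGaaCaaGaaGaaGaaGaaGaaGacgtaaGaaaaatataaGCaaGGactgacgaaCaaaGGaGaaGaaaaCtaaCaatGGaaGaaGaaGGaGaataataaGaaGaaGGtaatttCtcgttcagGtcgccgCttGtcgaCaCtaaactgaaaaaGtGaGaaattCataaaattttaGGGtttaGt

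Extensins are structural proteins of the plant cell wall, built of repeated runs of serine and proline. In the 3 extensin-type sequences the bases repeated best at a distance of 75 bp, with 88.9%, 88.6% and 92.1% of the bases equal to the base that far on in EXT10, AT3G28550 and HRGP1. In AT4G03580 the best value was 38.6%. The CHH cytosines of these repeats were mostly on the coding strand, with 72 of 84 on the reverse strand in EXT10, 100 of 111 in AT3G28550, and 91 of 107 on the forward strand in HRGP1.

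Several features of the lists bear on all results. Because each genotype and time point had a lone library, none of the differences below could be set against a spread between replicates, and no test was made. The 95% intervals given are exact (Clopper-Pearson) for shares, Newcombe intervals for differences of shares and from order statistics for medians, and they cover counting error only. Where a count is 0, the share it allows is given as that of 3 counts of the total. The lists give no number of reads per region, so the depth of a level is unknown. By the sequencing statistics of the study the WT library of time point 0 had by far the fewest mapped reads, so that in the WT lists low depth at time point 0 and a change upon UV-C cannot be told apart. The ddb2 and ago1 lists are not independent either. Among the 96 CHH DMRs with the same coordinates in both, 78 had an identical level at 24h (within 1e-06 points), including 4 of 4 genic ones, whereas none was identical at time point 0 and none in any other pair of genotypes.

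Genic CHH DMRs were mainly losses in WT and uvr3 phrI plants and mainly gains in ddb2 and dcl4 plants. In WT there were 32 hyper- and 131 hypo-DMRs, so that 19.6% had gained methylation, against 55.3% of the WT CHH DMRs of any position. In uvr3 phrI there were 18 hyper- and 99 hypo-DMRs, with gains in 15.4% against 15.4% at any position. The ddb2 lists held 341 hyper- and 12 hypo-DMRs (96.6% gains against 96.7%), and the dcl4 lists 293 and 9 (97% against 95%). In ago1 there were 64 hyper- and 47 hypo-DMRs, with gains in 57.7% against 52.0%. In the 4 mutants the shares in genes were thus close to those of all CHH DMRs, and WT stood apart.

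**Figure D1:**
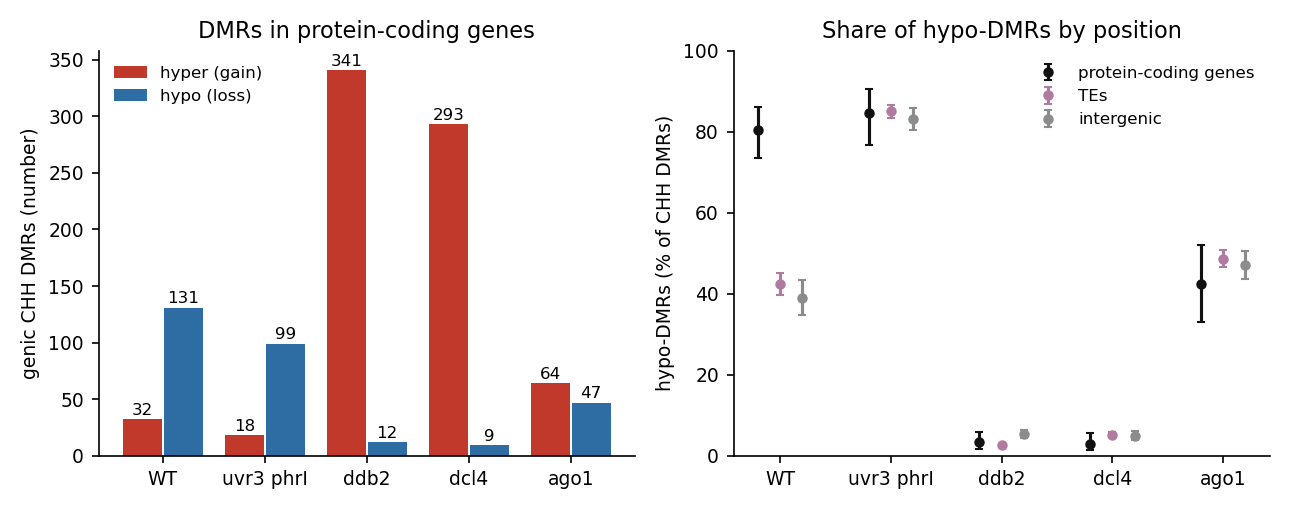
Left, number of genic CHH DMRs per genotype, as hyper-DMRs (red) and hypo-DMRs (blue). Right, percentage of hypo-DMRs among CHH DMRs in protein-coding genes, TEs and intergenic regions, with exact 95% intervals that cover counting error only. In WT the genic share (80.4%) lies above both others, and in the mutants the points of the 3 positions lie close together.

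Set against the other positions, 80.4% of the WT genic CHH DMRs were hypo-DMRs (95% CI 73.4 to 86.2%), compared with 42.4% in TEs and 38.9% in intergenic regions. The differences were 38 points (95% CI 30.7 to 44) and 41.4 points (95% CI 33.4 to 48.2). For uvr3 phrI the hypo share was 84.6% in genes and 85.2% in TEs, a difference of -0.55 points (95% CI -8.32 to 5.12). It was 3.4% against 2.54% in ddb2 (difference 0.86 points, 95% CI -0.65 to 3.33), 2.98% against 5.13% in dcl4 (-2.15 points, 95% CI -3.71 to 0.50) and 42.3% against 48.7% in ago1 (-6.32 points, 95% CI -15.4 to 3.22). The intervals of the 4 mutants include 0.

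The WT hypo list was also the one with the largest share of its CHH DMRs in genes. Of 878 WT CHH hypo-DMRs, 131 were genic (14.9%, 95% CI 12.6 to 17.5%). In the other 9 lists this share was between 2.74% (dcl4 hypo) and 4.69% (dcl4 hyper), and it was 2.94% for the WT hyper-DMRs (95% CI 2.02 to 4.13%). With both directions joined, genes held 8.29% of the WT CHH DMRs, and between 3.64% (ago1) and 4.59% (dcl4) of those of the mutants. The size of these shares depended on the regions taken, with 12.8% in WT among regions longer than 200 bp, and 1.91% in ddb2 and 1.96% in ago1 for changes of at least 20 points.

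The gains started from low levels. Medians of the hyper-DMRs went from 5.93% to 21.7% in WT (n = 32), from 2.69% to 15.9% in uvr3 phrI (n = 18), from 11.8% to 25.7% in ago1 (n = 64), from 10.3% to 26.3% in dcl4 (n = 293) and from 9.7% to 22.6% in ddb2 plants (n = 341). In dcl4, 23.5% of the genic hyper-DMRs were under 5% at time point 0, compared with 3.11% of those in TEs (difference 20.4 points, 95% CI 15.9 to 25.6). In ddb2 these shares were 21.4% and 12.5% (difference 8.88 points, 95% CI 4.77 to 13.6). In uvr3 phrI they were 55.6% and 22.6% (difference 33.0 points, 95% CI 10.5 to 53.4). The intervals included 0 for ago1 (6.25 points, 95% CI -0.92 to 17.2) and for WT hyper-DMRs (5.43 points, 95% CI -10.1 to 22.9). Against intergenic regions the difference was 15.5 points in dcl4 (95% CI 10.8 to 20.8), and its interval included 0 in ddb2 (3.47 points, 95% CI -0.89 to 8.38) and the other 3 genotypes.

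The losses ended at very different levels. WT hypo-DMRs went from a median of 22.9% (95% CI 20.8 to 26%) to 1.17% (95% CI 1.02 to 1.35%). In uvr3 phrI the hypo-DMRs went from 26.6% to 10.7%, in ago1 from 22.6% to 8.18%, in ddb2 (n = 12) from 16.6% to 2.86% and in dcl4 (n = 9) from 18.4% to 4.73%. At 24h, 71.8% of the WT genic hypo-DMRs were under 5%, while only 3.80% of those in TEs were (difference 68 points, 95% CI 59.5 to 75.1), where the median went from 34.7% to 15.9%. In uvr3 phrI 16.2% of the genic and 4.24% of the TE hypo-DMRs ended under 5% (difference 11.9 points, 95% CI 5.87 to 20.5), whereas against intergenic regions the interval included 0 (6.0 points, 95% CI -0.52 to 14.8). In WT the difference from intergenic regions was 60.5 points (95% CI 50.7 to 68.4). In ddb2 (n = 12) 83.3% of the genic and 35.8% of the TE hypo-DMRs ended under 5% (47.5 points, 95% CI 18.4 to 61.4). In ago1 it was 29.8% and 10.9% (18.9 points, 95% CI 7.59 to 33.2). From intergenic regions ago1 differed by 12.5 points (95% CI 0.61 to 27.0) and ddb2 by 25.4 points (95% CI -4.04 to 40.3). For dcl4 both intervals included 0 (8.30 points from TEs, 95% CI -21.3 to 34.6).

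**Figure D2:**
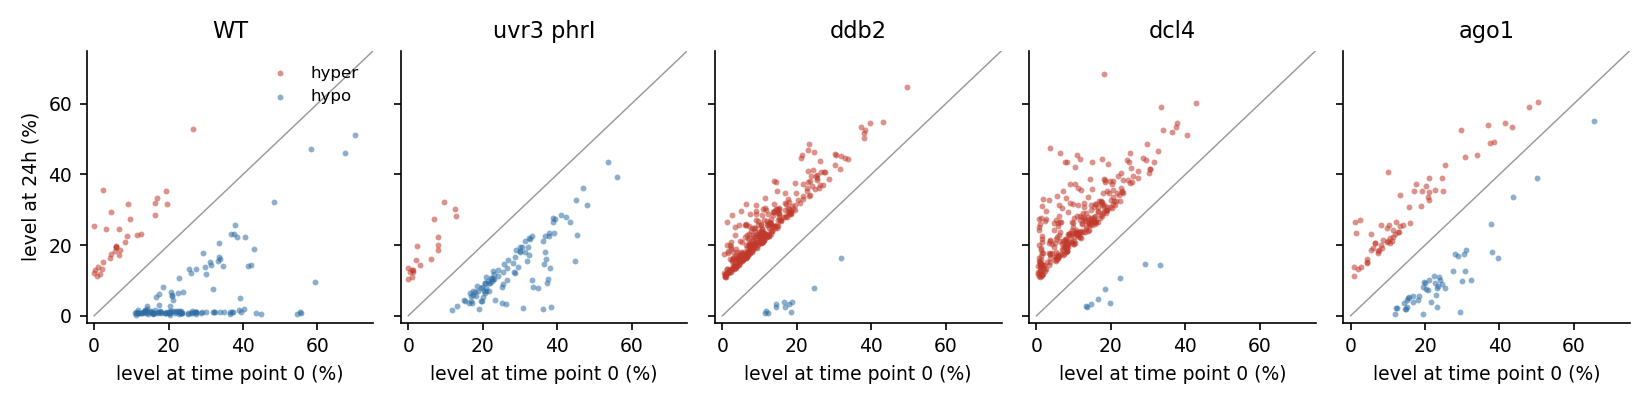
CHH methylation level of each genic CHH DMR at time point 0 (horizontal axis, %) and at 24h (vertical axis, %), with 1 panel per genotype, hyper-DMRs in red, hypo-DMRs in blue and the line of equal levels in grey. In WT most hypo-DMRs lie along the bottom, at a median of 1.17% at 24h, and in the uvr3 phrI and ago1 panels they lie higher (medians 10.7% and 8.18%).

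Nearly all WT regions that ended near 0 were listed in WT alone. Of the 131 WT hypo-DMRs, 21 overlapped a CHH DMR of another genotype by at least 1 bp (16.0%, 95% CI 10.2 to 23.5%), against 48.8 to 81.3% in the other 9 lists. The highest share is that of the ago1 hyper-DMRs, where 47 of 64 met a region of ddb2, whose list is not independent. Such shares are not given for CHH DMRs outside genes, so this cannot be called particular to genes. The 110 without such an overlap went from 21.6% (median) to 1.04%, and 93 of them ended under 5%. The 21 with an overlap went from 33.9% to 16.1%, and 1 ended under 5%. The median distance to the nearest TE was 3506 bp in the 110 and 857 bp in the 21.

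In the 3 largest lists of the mutants the regions listed in 1 genotype alone also had the lower levels. Of the dcl4 hyper-DMRs, the 143 that overlapped a CHH DMR of another genotype went from a median of 13.8% to 30.5%, and the 150 others from 6.92% to 21.5%. At time point 0, 60 of these 150 were under 5%, and 9 of the 143. The 174 overlapping ddb2 hyper-DMRs went from 11.2% to 25.2% and the 167 others from 7.41% to 20.3%. The 62 overlapping uvr3 phrI hypo-DMRs went from 30.2% to 13.6% and the 37 others from 22.1% to 7.8%. Among the short lists, the 9 uvr3 phrI hyper-DMRs without overlap had a median of 0.935% at time point 0, and the 6 ddb2 hypo-DMRs without overlap one of 2.86% at 24h, and all of them were under 5% there.

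By product, the WT hypo list held genes of ribosomal proteins and of photosynthesis. Of its 127 genes with a product in the reference, 9 encode ribosomal proteins (7.09%, 95% CI 3.29 to 13%), compared with 1.41% of all protein-coding genes and 0.375% (2 of 533) of the genes in the other lists. Another 8 genes carry photosynthesis words in their product (6.3%, 95% CI 2.76 to 12%), against 0.303% and 0.188% (1 of 533). Both groups of words were chosen after the values were seen. The photosynthesis genes comprised the light-harvesting genes CAB1 (AT1G29930, 34.9% to 0.935%), CAB2 (AT1G29920, 20.4% to 0.683%), LHCB2.1 (AT2G05100, 12.6% to 0.788%) and LHCA2 (AT3G61470, 17.4% to 3.07%). Also among them were RBCS1A (AT1G67090, 14.1% to 1.82%), a small subunit of the CO2-fixing enzyme Rubisco, PSAD-1 (AT4G02770, 23.5% to 0.702%), a subunit of photosystem I, and PETC (AT4G03280, with 37.1% to 1.16% and 16.4% to 1.61%), the Rieske protein of the electron transfer chain. None of these regions overlapped a CHH DMR of another genotype. The part of the low depth of the WT library in them was not tested.

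The largest losses of WT were in CIPK7 (AT3G23000), a kinase that binds calcium sensors, from 55.5% to 0.796%, and in hda10 (AT3G44660), a histone deacetylase, from 55.3% to 0.946%. The CIPK7 region lay partly in a TE (147 bp), with its midpoint 4 bp outside. The longest WT region was a hypo-DMR of 450 bp in RUS2 (AT2G31190), a gene named for the UV-B sensitivity of roots in its mutant, from 15.1% to 1.15%.

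The spread of the genic CHH DMRs over the parts of the gene differed between genotypes. The class was read at the midpoint from the reference gene models, and the comparison set was every position on a 50-bp grid in protein-coding genes outside TEs. Coding sequence held 54.7% of the genic CHH DMRs (95% CI 51.6 to 57.7%) and 56.0% of the gene sequence, and introns held 27.4% (95% CI 24.8 to 30.3%) and 29.1%. UTRs held 13.5% (95% CI 11.5 to 15.7%) and 14.1%. For the WT hypo-DMRs the share in coding sequence was higher (74.8%, 95% CI 66.5 to 82%) and that in introns lower (13.7%, 95% CI 8.35 to 20.8%) than for gene sequence. In ddb2 plants the share in coding sequence was lower than for gene sequence (49.3%, 95% CI 44.0 to 54.6%), and in ago1 plants the share in exons was lower (58.6%, 95% CI 48.8 to 67.8%, against 70.1% of gene sequence). The totals include midpoints outside the reference gene model and in genes missing from the reference, which lowers the other shares. These made up 5.41% and 3.60% in ago1, 2.83% and 1.42% in ddb2, and 0.494% and 0.273% of gene sequence. Their part in the lower shares of ddb2 and ago1 was not tested. The shares in coding sequence of dcl4 (54.3%, 95% CI 48.5 to 60.02%), uvr3 phrI (58.97%, 95% CI 49.5 to 67.98%) and ago1 (47.7%, 95% CI 38.2 to 57.4%) had intervals that include that of gene sequence. With the gene divided into 5 equal parts, the part at the 5′ end held 17.6% of all genic CHH DMRs (95% CI 15.3 to 20.02%), but 10.1% of the WT hypo-DMRs (95% CI 5.48 to 16.6%) and 12% of the uvr3 phrI DMRs (95% CI 6.7 to 19.3%). The part at the 3′ end held 21.3% of all (95% CI 18.9 to 24%).

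Genic CHH DMRs lay close to TEs. Their midpoints had a median distance of 1244 bp to the nearest TE (95% CI 1084 to 1415), compared with 4363 bp for gene sequence, and 44.6% lay within 1 kb, compared with 13.6%. The shortest median was that of uvr3 phrI (948 bp), ahead of ddb2 (988 bp), ago1 (1007 bp) and dcl4 (1450 bp), and the longest that of WT (2841 bp). Of all genic CHH DMRs, 11.9% reached partly into a TE and 73.9% lay wholly inside the gene. The pericentromere was taken as the longest gene-poor stretch of each chromosome, and TE content played no part in this choice. In such a stretch the coverage by protein-coding genes, averaged over 10 neighbouring bins of 100 kb, stayed below 50% of the median value for that chromosome. These stretches held 16.8% of the genic CHH DMRs (95% CI 14.6 to 19.2%) but 3.87% of the gene sequence.

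**Figure D3:**
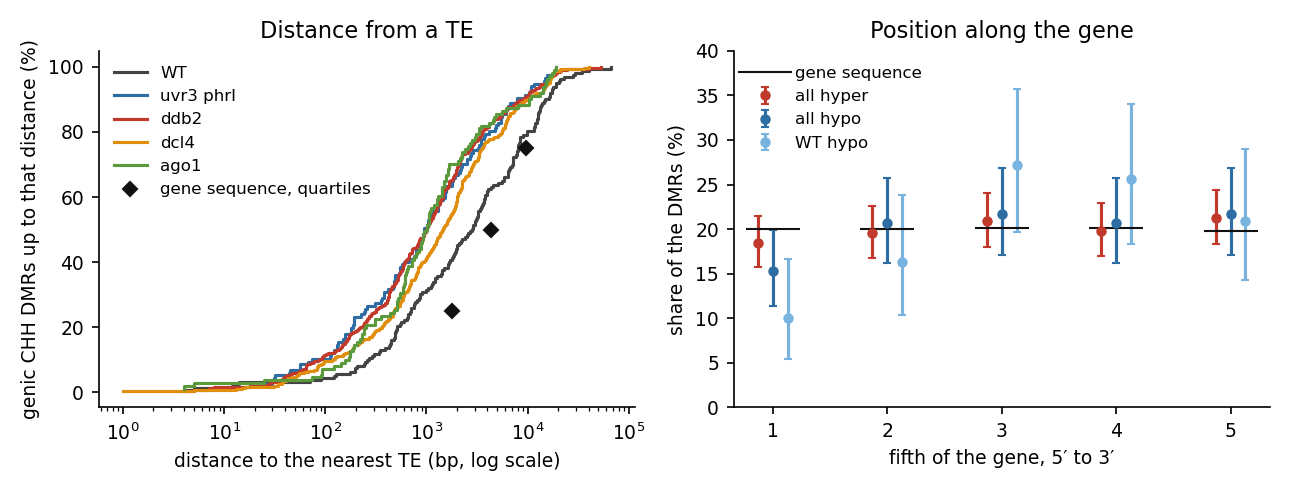
Left, cumulative percentage of genic CHH DMRs against the distance of their midpoint from the nearest TE (bp, log scale), 1 line per genotype, with the quartiles of gene sequence as diamonds. Right, percentage of the DMRs along the gene from 5′ to 3′, in 5 equal parts, with exact 95% intervals and the gene sequence as black lines. The lines of the 4 mutants lie left of the WT line (median 2841 bp), and all genotypes lie left of gene sequence (median 4363 bp).

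Part of these regions had copies in the genome. In 10.5% of the genic CHH DMRs (95% CI 8.72 to 12.5%) more than 50% of the 100-base words occurred more than once in the genome, against 0.951% of gene sequence. Bisulfite reads from such regions may be shared between copies, so that their levels are uncertain. Tandem repeats were a separate feature. In 68 regions (6.50%, 95% CI 5.08 to 8.17%) at least 70% of the bases equalled the base at the best distance of 10 to 100 bp, against 0.117% of gene sequence. These 68 regions, singled out after the values were seen, lay in 15 genes, 12 of which encode extensins or hydroxyproline-rich proteins and hold 60 of the 68. They comprised 46 hyper- and 22 hypo-DMRs, 67 of them in coding sequence. The median density of CHH sites was 27.4 per 100 bp in the genic CHH DMRs and 27.9 in gene sequence.

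The DMRs fell in 650 of the 27206 protein-coding genes (2.39%). Of these genes 445 were hit in 1 genotype, 135 in 2, 52 in 3, 14 in 4 and 4 in all 5, so that 205 were hit in at least 2 genotypes. Without the ago1 lists 165 genes were hit in at least 2 genotypes, and without the WT lists 186. Of the 205 genes, 103 held both gains and losses, 93 only gains and 9 only losses. In uvr3 phrI 70.9% of the 110 genes hit were also hit in another genotype, in ddb2 54.7% of 309, in dcl4 49.8% of 269 and in ago1 76.2% of 101. In WT it was 27.8% of 158 genes (95% CI 21 to 35.5%). Of the 101 ago1 genes 60 were shared with ddb2, whose levels at 24h are in part identical. No such shares are given for CHH DMRs outside genes.

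The ddb2 and dcl4 lists shared 105 genes, 34% of the ddb2 genes and 39% of the dcl4 genes. Their DMRs overlapped 113 times, and 107 of these overlaps were of the same direction, all of them gains, which both lists mainly hold. In the 107 regions the median went from 12.0% to 26.3% in ddb2 and from 14.98% to 31.2% in dcl4 plants. The ddb2 and ago1 lists shared 60 genes, but rest in part on identical values at 24h, as given above. The dcl4 and ago1 lists shared 40 genes, with 25 overlaps of the same and 15 of opposite direction.

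Overlaps of uvr3 phrI with ddb2 and dcl4 regions were mostly of opposite direction, as were the lists as a whole, with 84.6% losses in uvr3 phrI and 96.6% and 97% gains in ddb2 and dcl4. Of 54 overlaps with ddb2 regions, 44 were of opposite direction (81.5%), as were 31 of 38 with dcl4 regions (81.6%), so that the counts say nothing beyond the direction of the lists. In the 44 regions lost in uvr3 phrI and gained in ddb2, the median level went from 32.6% to 16.0% in uvr3 phrI and from 12.0% to 25.9% in ddb2. At time point 0 the level was higher in uvr3 phrI in 43 of the 44 overlaps, with a median difference of 16.6 points, and at 24h in 5 of them, with a median difference of -9.99 points. In the 30 overlaps of regions lost in uvr3 phrI and gained in dcl4, the median went from 32.3% to 15.4% and from 15.7% to 36.1%. Of 21 overlaps of WT with dcl4 regions, 14 were of opposite direction. The 13 overlaps of WT hypo- with dcl4 hyper-DMRs went from 37.8% to 17.8% in WT and from 13.8% to 28.0% in dcl4. The lists select regions by these same changes, so the levels are a description of the overlaps and no test of them.

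**Figure D4:**
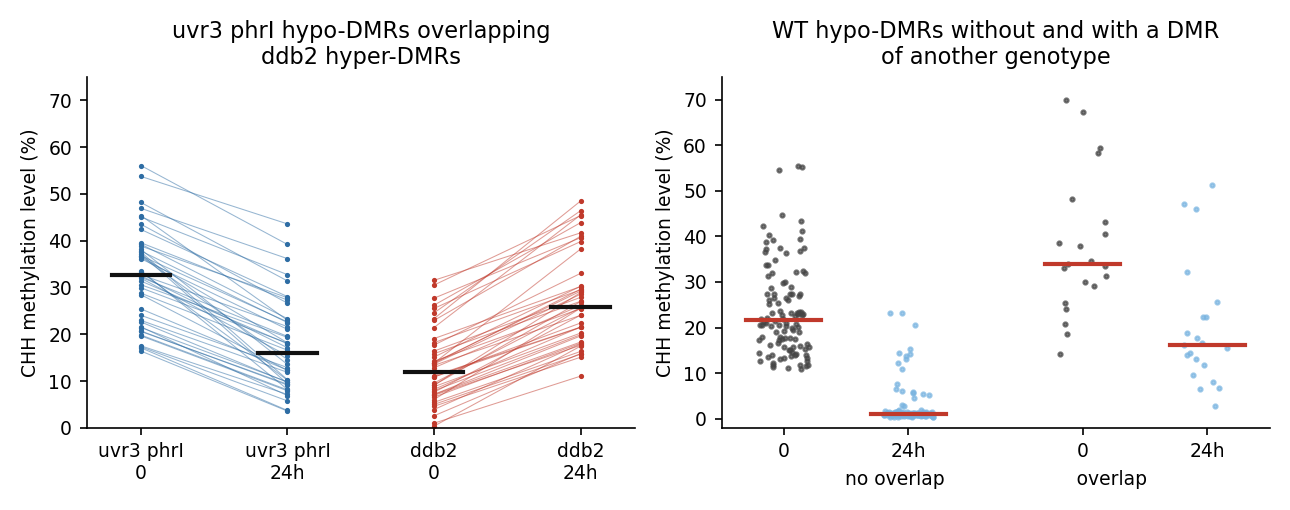
Left, CHH methylation level (%) of the 44 overlaps of uvr3 phrI hypo-DMRs with ddb2 hyper-DMRs at time point 0 and 24h, with a line per region and black bars for the medians (32.6% to 16.0% and 12.0% to 25.9%). Right, level of the WT hypo-DMRs without (n = 110) and with (n = 21) an overlap with a CHH DMR of another genotype, with red bars for the medians. The regions without overlap end near 0 (median 1.04%) and those with overlap do not (median 16.1%).

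The gene with the most DMRs was EXT10, with 13 (8 gains and 5 losses) in all 5 genotypes, which covered 1650 of its 2070 bp. The midpoints of these DMRs lay 14260 bp or more from a TE. In its middle, between 2040750 and 2041150 on chromosome 5 (TAIR10), the region from 2040800 to 2041150 was listed with the same coordinates as a loss in dcl4, from 33.2% to 14.4%, and as a gain in ago1, from 17.7% to 37.2%. There ddb2 gained from 17.7% to 33.0% and uvr3 phrI lost from 29.9% to 18.1%. Other regions reached into this stretch with the other direction in the same genotypes. They were a loss in ago1 (2040450 to 2040900, 28.1% to 17.4%), a gain in uvr3 phrI (2041050 to 2041250, 12.5% to 30.1%) and a gain in dcl4 (2040150 to 2040800, 16.1% to 31.7%). Another part of EXT10 had the largest gain of ago1, from 10.1% to 40.6%, in the sequence printed above, and overlapping that part WT gained from 4.43% to 29.4%, whereas dcl4 lost from 29.03% to 14.7%.

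Gains and losses were side by side in other extensin-type genes too. AT5G06630, the neighbour of EXT10, held 9 DMRs in all 5 genotypes, among them the largest gain of WT (2.50% to 35.5%), the longest regions of ddb2 (1100 bp, 9.12% to 28.9%) and ago1 (1000 bp, 15.7% to 30.9%), and a uvr3 phrI loss from 37.2% to 9.41%. AT3G54580 held 11 DMRs, with the highest gain in dcl4 (10.9% to 45.4%) and losses in uvr3 phrI (17.1% to 3.72%), dcl4 (13.6% to 2.57%) and ago1 (24.6% to 9.12%). HRGP1 held 8, gained in 5 and lost in 3, with 6.25% to 46.1% in one region and 19.7% to 3.59% in the region printed above, both in dcl4. AT4G08410 had a uvr3 phrI loss from 36.1% to 2.03% and a dcl4 gain from 3.49% to 32.6%. EXT6 (AT2G24980) gained from 7.68% to 43.5% in dcl4 and from 0.366% to 17.5% in ddb2, and lost from 22.96% to 11.9% in uvr3 phrI and from 14.5% to 2.01% in ago1. In the uvr3 phrI regions of AT4G08410 and EXT6, 79.4% of the 100-base words occurred more than once in the genome. The levels of both are thus uncertain. The second largest gain of ago1, in AT3G28550, went from 1.26% to 26.6%. Of 56 genes with the word extensin in their product, 11 were hit (19.6%, against 2.39% of all protein-coding genes), with 41 gains and 20 losses, compared with 748 and 298 over all genic CHH DMRs. The word was added after the values were seen.

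Besides the extensins, the genes hit in at least 4 genotypes included the auxin response factors ARF12 (AT1G34310), ARF14 (AT1G35540) and ARF22 (AT1G34390), transcription factors of a family with several members on chromosome 1. ARF14 held 6 DMRs in 4 genotypes, all gains, among them 5.59% to 18.5% in WT and 20.6% to 33.6% in dcl4. ARF12 gained in WT (12.7% to 23.1%), ddb2 and dcl4 (17.3% to 32.6%), and lost in uvr3 phrI (25.3% to 3.70%). ARF22 gained in ddb2, dcl4 (34.0% to 52.5%) and ago1, and lost in uvr3 phrI (17.8% to 6.59%). These ARF regions held few repeated 100-base words (at most 9.9%).

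LpxC2 (AT1G24880) with 7 DMRs and LpxC3 (AT1G25054) with 5, which encode deacetylases similar to those of bacterial lipid A synthesis, and the translation initiation factor genes AT1G53880 and AT1G53900 had DMRs made wholly of repeated words, so that their levels are uncertain. Apart from those of AT1G53900, they lay outside the reference gene models, as did those of AT3G24610. Their regions were lost in uvr3 phrI, in LpxC2 and AT1G53880 also in WT, and gained in ddb2, dcl4 and ago1. In AT1G53880 the level went from 48.3% to 32.2% in WT and from 37.8% to 22.5% in uvr3 phrI, and it gained from 24.6% to 46.4% in ddb2. AT3G24610, a kelch repeat gene without repeated words in its DMRs, went from 43.5% to 26.6% in uvr3 phrI, whereas it gained in ago1 (24.6% to 39.1%), dcl4 (20.2% to 37.4%) and ddb2 (22.96% to 40.9%). The uncharacterized gene AT3G06435 lost in uvr3 phrI (21.6% to 6.88%) and gained in ddb2, dcl4 and ago1. The glycosyltransferase gene AT3G07380 lost in WT (29.9% to 11.9%) and gained in the same 3 mutants. Its WT and ago1 regions were made wholly of repeated words, so that their levels are uncertain too. The lipid transfer protein gene AT3G22142 lost in WT (37.8% to 25.6%) and uvr3 phrI (33.3% to 22.4%), and gained in ddb2 and dcl4.

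**Figure D5:**
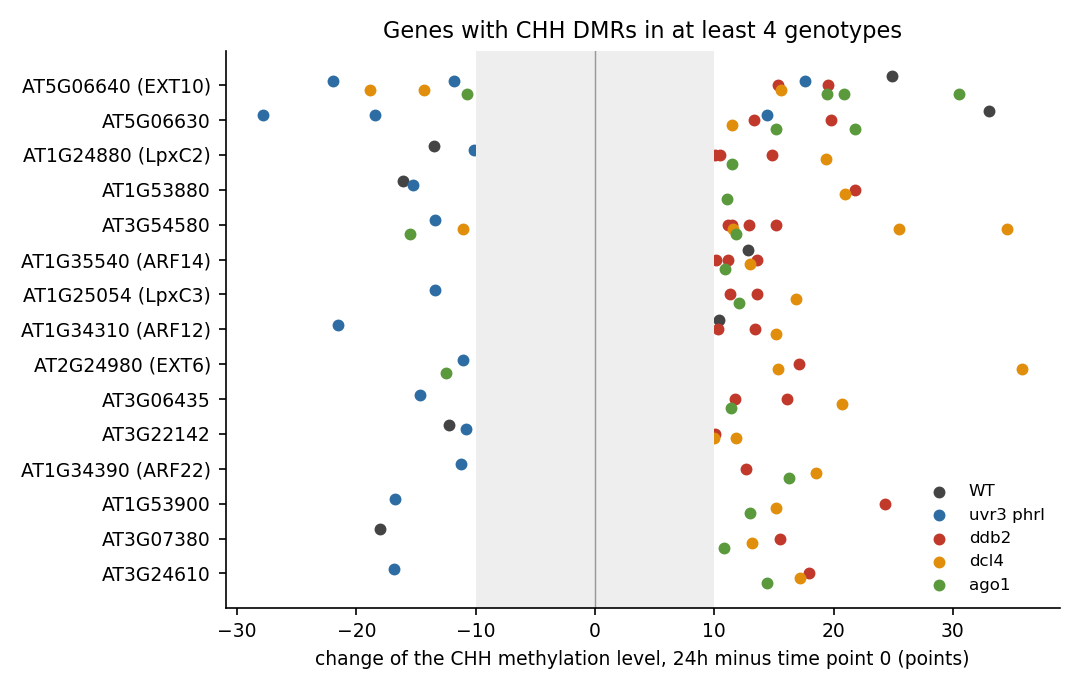
Change of the CHH methylation level (24h minus time point 0, points) of every DMR in the 15 genes named for being hit in at least 4 genotypes, 1 row per gene and 1 colour per genotype. The grey band covers changes under 10 points, which the authors did not list. Most uvr3 phrI points (blue) lie left of the band and all ddb2 points (red) right of it.

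In dcl4 plants the longest regions lay in both nitrate reductase genes, which catalyse the first step of nitrate assimilation. NIA1 (AT1G77760) had a hyper-DMR of 1700 bp, the longest of all genic CHH DMRs, from 9.12% to 32.0%, and another of 1050 bp from 5.91% to 26.3%. Together they covered 2750 of its 3643 bp. NIA2 (AT1G37130), chosen after its values were seen, had 3 hyper-DMRs over 2300 of its 3412 bp, of 750 bp from 5.13% to 18.2%, of 1550 bp from 6.01% to 31.4%, and a nested one of 200 bp from 5.44% to 33.9%. The genes held no repeated 100-base words there, and neither gene had a genic CHH DMR in another genotype. The largest gains of dcl4 lay elsewhere, in an intron of MEE15 (AT2G16970, a membrane transporter of the major facilitator family) from 18.2% to 68.5%, and in the 5′ UTR of AT1G59171 from 3.62% to 47.5%, a region made wholly of repeated words. The largest dcl4 losses were those of EXT10 and HRGP1 given above.

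Among the largest changes of the other lists, WT gained in an intron of IAMT1 (AT5G55250), which methylates the hormone auxin, from 26.7% to 52.9%. In uvr3 phrI the gains were in AT4G03580 (9.54% to 32.2%, printed above) and AT5G52070 (6.97% to 27.4%), and the largest loss was in AT3G44440, from 38.4% to 2.4%, a region that lay 7 bp from a TE. In ddb2 the gains were in AT4G18000 (2.66% to 28.4%) and in the 3′ UTR of GAE6 (AT3G23820), an enzyme of pectin precursor synthesis, from 1.22% to 26.4%. The ddb2 losses were in AT3G09960 (18.3% to 0.953%) and AT2G15340 (24.7% to 7.82%). In ago1 the losses were in AT5G06030, a gene of the self-incompatibility protein S1 family, from 29.4% to 0.952%, and in MEE23 (AT2G34790), from 39.7% to 16.3%. The longest uvr3 phrI regions were a pair of hypo-DMRs of 600 bp, in AT2G38255 (19.7% to 7.92%) and AT2G16018 (21.4% to 9.84%).

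Changes of CHG methylation, the symmetric context next to CHH, accompanied 67 of the 1046 genic CHH DMRs (6.41%, 95% CI 5.0 to 8.06%), that is, a CHG DMR of the same genotype overlapped them. All 67 were of the same direction. The share was 3.69% for the CHH DMRs outside genes (difference 2.71 points, 95% CI 1.36 to 4.38). It was highest in ddb2, with 44 of 353 (12.5%), and followed by 14 in dcl4, 7 in WT, 2 in ago1 and 0 of 117 in uvr3 phrI, which allows a share of up to 2.56%. Outside genes the share was highest in ddb2 as well (8.30%), with 1.24% in dcl4, 0.943% in WT, 0.298% in uvr3 phrI and 0.136% in ago1. The ddb2 lists held 1055 of the 1204 CHG DMRs of any position. CG DMRs overlapped 4 genic CHH DMRs, all of ddb2, whose lists held 50 of the 51 CG DMRs of any position.

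Photolesions had been mapped at time point 0 by immunoprecipitation with antibodies against cyclobutane pyrimidine dimers and 6,4 photoproducts (IPOUD), and enriched regions were listed per genotype with their fold enrichment over the input DNA of WT plants. Of the genic CHH DMRs, 15 overlapped a photolesion region of their own genotype by at least 1 bp (1.43%, 95% CI 0.805 to 2.35%), against 0.786% of the CHH DMRs of any position. They comprised 4 in WT, 1 in uvr3 phrI, 4 in ddb2 and 6 in dcl4, with 10 gains and 5 losses. In ago1 it was 0 of 111, which allows a share of up to 2.7%. Only 3 of the 15 were covered to at least 50%.

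The highest fold enrichment, 6.84, was at ARF14 in ddb2 (15.2% to 28.7%), followed in dcl4 by 6.45 at AT5G28463 (5.15% to 21.6%) and 6.12 at AT2G16676 (22.1% to 34.2%), a gene derived from a non-LTR retrotransposon. A dcl4 hypo-DMR in AT5G07570, which encodes a glycine- and proline-rich protein, was covered to 100% by a photolesion region of 4.80-fold enrichment and went from 16.4% to 4.73%. A ddb2 hypo-DMR of the extensin-like gene AT1G23720 (31.9% to 16.2%) met one of 4.76-fold. The WT hypo-DMRs in AT2G25650 (36.6% to 0.571%) and in the chloroplast chaperone gene cpHsc70-2 (AT5G49910, 36.4% to 0.980%) met regions of 4.50- and 4.20-fold. The others named by rank were AT2G46550 in dcl4 (4.38-fold, 1.12% to 15.8%), and AT2G15420 (6.76% to 17.3%) and AT5G12090 (10.3% to 21.2%) in ddb2, both at 4.18-fold.

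Genes of DNA methylation and repair were looked up as lists. Of 26 genes of DNA methylation and demethylation, 1 held a genic CHH DMR (3.85%, 95% CI 0.0973 to 19.6%), a share whose interval includes the 2.39% of all protein-coding genes. This was DCL4 itself (AT5G20320), with a gain in the 5′ UTR from 10.4% to 23.8% in ddb2 plants. None was in the 12 genes of photolesion repair, which allows a share of up to 25%, nor in 5 genes known for methylation-dependent expression, which allows up to 60%, and lists of this size do not tell these shares from that of all genes.

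By the product names of the reference, which listed 636 of the 650 genes, transposon-like genes made up 4.09% of the genes hit (26 genes, 95% CI 2.69 to 5.93%) and 0.606% of all protein-coding genes. F-box genes, which encode parts of ubiquitin ligases, made up 4.09% (95% CI 2.69 to 5.93%) and 2.35%. Small secreted proteins of the defensin-like, self-incompatibility and cysteine-rich kind made up 2.99% (95% CI 1.81 to 4.63%) and 1.42%. Kinases were less frequent among the genes hit than among all genes (2.83%, 95% CI 1.69 to 4.44%, against 5.13%). For the resistance gene words (NB-ARC, TIR, LRR) the shares were 2.52% and 1.88%, for zinc finger proteins 2.36% and 1.89%, for cytochrome P450 genes 0.943% and 0.928%, for pentatricopeptide proteins 0.472% and 0.977%, and for products named hypothetical or unknown 0.943% and 1.28%, with intervals that include the share of all genes. Products named uncharacterized, a word added after the values were seen, made up 14.6% of the genes hit (93 genes, 95% CI 11.97 to 17.6%) and 8.55% of all genes.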

How the data were processed

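WGBS libraries of leaves, 1 per genotype and time point, had been made from pooled leaves of 2 biological replicates. The authors mapped the reads with BSMAP to TAIR10, extracted methylation ratios, compared both time points in sliding windows of 200 bp with an overlap of 50 bp, joined neighbouring windows of the same change, recalculated the level and kept changes of at least 40 (CG), 20 (CHG) and 10 points (CHH) at a Wilcoxon signed-rank p threshold of 0.05. The levels, deposited as fractions with decimal commas and recorded as a score, were converted to percentages. Whether the level of a region pools its calls or averages its cytosines is not stated. The column of listed differences, a comparison by the authors, was not used, and the changes were recomputed from both levels. For photolesions the authors mapped IPOUD reads with Bowtie 1.1.2 and called regions with MACS2 2.1, and the deposited values are fold enrichments over the WT input. The 60 columns of the 6 small RNA tables were not used.

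The midpoint of each CHH DMR was compared with the authors' gene and TE annotation. Features, products and sequences came from the RefSeq annotation of TAIR10.1, which listed 26714 of the 27206 protein-coding genes, and 4 listed regions that ran past a chromosome end were handled as listed. The members and the gene lists were chosen with earlier results of these data known. Named were the 2 largest changes per list, up to 15 genes hit in at least 3 genotypes, the 5 genes with most DMRs, the 5 with the largest opposite changes, genes of the lists, the 10 highest photolesion overlaps and the longest region per genotype. No fit across libraries was possible. Alternatives changed the minimum change, the gene assignment, the annotation, the length and the lists used. Scripts were tested on simulated data and run with Python 3.11.15, numpy 2.4.6, pandas 2.3.3, scipy 1.17.1 and matplotlib 3.10.9.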

Additional observations from a re-analysis of the deposited data

Results flagged for a closer look

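In 5 genes the regions of 1 genotype gained and those of another lost methylation with the largest sums of both changes. The difference between genotypes was not tested in any of them, because there was 1 library per genotype and time point. In MEE15 (AT2G16970) the sum of the largest gain and the largest loss was 74.9 points, with an intronic gain in dcl4 from 18.2% to 68.5%, another in ddb2 from 23.4% to 48.5%, and a loss in uvr3 phrI from 38.1% to 13.5%. In RPP5 (AT4G16950), a resistance gene against downy mildew, it was 73.4 points, with a loss in WT from 59.3% to 9.59% and gains in dcl4 (6.92% to 30.5%) and WT (1.11% to 13.9%). At least 95% of the 100-base words of the RPP5 regions occur again in the genome, so that reads of related resistance genes may be counted there.

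The other 3 genes encode extensin-type cell wall proteins with tandem repeats. In HRGP1 (AT3G54590) the sum was 68.4 points, with a gain in dcl4 from 6.25% to 46.1% and a loss in uvr3 phrI from 30.8% to 2.30%. In AT4G08410 it was 63.2 points, with 3.49% to 32.6% in dcl4 and 36.1% to 2.03% in uvr3 phrI, where 79.4% of the 100-base words occur again in the genome. In AT5G06630 it was 60.8 points, with 2.50% to 35.5% in WT and 37.2% to 9.41% in uvr3 phrI.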

How the results depend on the processing

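Of 210 alternative values, 140 stayed within their counting interval or within 1.5 times the count, and 70 moved. A change of direction was not scored. No paired analysis was possible because there was 1 library per genotype and time point.

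With a change of at least 15 points, 11 WT hyper-, 5 uvr3 phrI hyper-, 34 uvr3 phrI hypo-, 76 ddb2 hyper-, 3 ddb2 hypo-, 109 dcl4 hyper-, 2 dcl4 hypo-, 18 ago1 hyper- and 13 ago1 hypo-DMRs were left. The WT hypo share was then 89%, the genic share was 2.43% in ago1, 2.56% in ddb2 and 3.34% in uvr3 phrI, and 49 genes were hit in at least 2 genotypes. Medians were then 31.7% at 24h for WT hyper, 26.4% at time point 0 for WT hypo, 9.54% and 28.2% at both time points for uvr3 phrI hyper, 34.2% at time point 0 for uvr3 phrI hypo, 28.8% at 24h for ddb2 hyper, 24.7% and 7.82% for ddb2 hypo, 31.4% at 24h for dcl4 hyper, 34.7% at 24h for ago1 hyper and 25.4% at time point 0 for ago1 hypo. With at least 20 points, 6 hyper- and 51 hypo-DMRs of WT were left, with 6 and 5 of ago1, 48 and 0 of dcl4, 18 and 0 of ddb2, and 2 and 15 of uvr3 phrI. The hypo share was then 89.5% in WT and 0% in ddb2 and dcl4, and the genic share 1.96% in ago1, 1.91% in ddb2 and 3.46% in uvr3 phrI. The counts are lower by construction, and the cause of the moved shares and medians was not tested.

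Among regions longer than 200 bp there were 16 WT hyper-, 8 and 47 uvr3 phrI hyper- and hypo-, 6 ddb2 hypo-, 4 dcl4 hypo-, and 31 and 19 ago1 hyper- and hypo-DMRs, and the WT genic share was 12.8%. With the whole region inside 1 gene, 226 ddb2 hyper-DMRs were left, and the genic share was 2.69% in ago1, 3.35% in dcl4, 2.60% in ddb2 and 3.35% in uvr3 phrI. It was 3.29% in ddb2 with no base in a TE, and with the reference genes 4.59% in ddb2 and 5.43% in dcl4. Means weighted by length were 26.1% and 5.03% for WT hypo, 11.9% and 25.4% for ddb2 hyper, 12.2% and 28.2% for dcl4 hyper, 16.1% at time point 0 for ago1 hyper and 10.2% at 24h for ago1 hypo. With at least 50% of the region covered, 3 overlapped a photolesion region.

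Chosen after seeing the data, regions of mostly unique 100-base words gave hypo shares of 80.8% (WT), 44.3% (ago1), 3.03% (dcl4), 3.7% (ddb2) and 83% (uvr3 phrI), and 180 genes hit in at least 2 genotypes. Regions below 70% tandem identity gave 196. The lists hold no read counts, so that no level near the threshold of 10 points can be weighed by its depth, and in WT the depth of the library of time point 0 cannot be told apart from the losses.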

Other observations

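Further WT hypo-DMRs lay in 5 genes outside the groups of the report, chosen after their values were seen. The level went from 44.8% to 0.554% in the lipid transfer protein gene LP1 (AT2G38540), from 25.3% to 0.392% in the stress transcription factor gene DREB2A (AT5G05410), from 19.3% to 0.923% in the glucosidase gene PYK10 (AT3G09260), from 15.7% to 0.569% in the actin gene ACT7 (AT5G09810) and from 11% to 0.759% in the glycolytic gene GAPC1 (AT3G04120). The ribosomal protein genes had losses between 11.3% to 1.2% (AT1G67430) and 26.4% to 0.784% (AT1G17080).

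Outside the fixed lists, a pair of genes of DNA maintenance were hit in both directions. In DMT2 (AT4G14140), a relative of the maintenance methyltransferase of the CG context, a coding region went from 24.0% to 12.9% in uvr3 phrI and from 8.80% to 20.2% in ddb2. In BRCA2(IV) (AT4G00020), a gene of homologous recombination, an intronic region went from 25.5% to 8.87% in uvr3 phrI and from 5.35% to 27.0% in dcl4.

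Repeated sequence was also counted by the number of genotypes that a gene was hit in. Genes with mostly repeated 100-base words in their DMRs made up 28 of 445 genes hit in 1 genotype (6.29%, 95% CI 4.22 to 8.97%), 13 of 135 hit in 2 (9.63%, 95% CI 5.23 to 15.9%) and 10 of 70 hit in at least 3 (14.3%, 95% CI 7.07 to 24.7%), with intervals that overlap, and the median distance to a TE was 1243, 1049 and 682 bp.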
